A study of Mus musculus with 2 samples.

Results

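The members of the translation factor group are the genes whose symbols begin with Eif1 to Eif6 or with Eef1 or Eef2, taken from probe sets that name 1 gene, without the eIF2 alpha kinases (symbols beginning with Eif2ak) and without a Y-linked gene of the eIF2 gamma subunit. They numbered 47 of the 12393 genes measured, 37 of initiation and 10 of elongation and its modifying enzymes, on 108 probe sets. Each was measured on 2 oligonucleotide arrays, 1 per sample. Both samples were spleen cells sorted by flow cytometry for surface IgM and IgD, from wild-type mice with no genetic modification. The series concerns the transcription factor SRF (serum response factor), and SRF-deficient samples were not analysed here. With 2 samples of 1 group no difference between groups could be tested and no p-value was computed. The labels give no strain, age or treatment, nor do they state whether each sample is a mouse of its own. Replicates 1 and 2 are names in accession order. Spread between them may be technical or biological, and which of these it was, was not tested.

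Translation starts when eIF2 brings the initiator tRNA to the small ribosomal subunit, where eIF1, eIF1A, eIF3 and eIF5 hold the scanning complex together. The mRNA is brought in by eIF4F, a complex of the cap-binding protein eIF4E, the scaffold eIF4G and the helicase eIF4A. After the subunits join, eEF1A delivers aminoacyl-tRNAs and eEF2 moves the ribosome along the mRNA. The guanine nucleotide on eIF2 is exchanged by eIF2B, a step blocked when stress kinases phosphorylate eIF2 alpha. In resting lymphocytes protein synthesis is low and rises steeply upon activation, and many of the mRNAs for elongation factors begin with a run of pyrimidines that places them under control of the kinase mTOR.

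The values are MAS5 signals on a linear scale, deposited by the authors. Replicate 1 had a median signal of 103 and replicate 2 one of 66.6. A signal counted as above the floor of its array when it exceeded the 90th percentile of 59 probe sets for 33 genes restricted to other organs. This floor was 154 on replicate 1 and 111 on replicate 2. Over the 4971 probe sets above both floors, the SD of log2 signal pooled over probe sets was 0.63, or 1.54-fold. All 8 measured B cell markers were above the floor on both arrays, with a summed signal of 40578 and 39606, but Cd79a, which encodes a chain of the B cell receptor and was picked after its values were seen, gave 2931 on replicate 1 and 192 on replicate 2. Of 26 markers of 6 other cell types, 6 were above it on both arrays. The count was 0 of 7 for T cells (summed signal 397 and 282), 2 of 6 for monocytes and macrophages (969 and 606), 3 of 4 for neutrophils (731 and 876), 0 of 3 for NK cells (219.8 and 204), 0 of 2 for erythroid cells (331 and 53.8) and 1 of 4 for plasma cells (1002 and 2088). The ratio of 3′ to 5′ signal was 3.57 on replicate 1 and 8.15 on replicate 2 for Actb, and 1.31 and at least 7.40 for Gapdh. It went the other way for 18S ribosomal RNA, at 1.18 and 0.19, whose 5′ probe set gave 408 and 3395. The 5′ probe set of Gapdh fell under the floor on replicate 2, which was used in its place. The 9 probe sets for bacterial and phage RNAs, which the array maker's procedure adds as hybridization controls, were all brighter on replicate 1, by a median of 5.22-fold and up to 13.2-fold. The transcript Xist, made from the inactive X chromosome, gave 1025 and 5.70 by its brightest probe set. The part of these array differences in the differences described for the translation factors was not tested.

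Most translation factor genes were detected on both arrays, a term used here for genes with at least 1 probe set above both floors. Of the 47 members, 37 were above the floor on both, or 78.7%, against 30.1% of all genes. The initiation factors gave 32 of 37 and the elongation factors with their modifying enzymes 5 of 10. The ribosomal protein genes gave 40 of 45 and the mitochondrial ribosomal protein genes 48 of 74. A gene with more probe sets has more chances to be detected, and these shares were not matched for that number. The 47 members had 108 probe sets, and the 12393 genes had 20380. Counted by probe set, 63 of the 108 were above both floors, against 4971 of the 20380. Of the 10 other members, 4 were above the floor of replicate 2 alone, 1 above that of replicate 1 alone, 2 above each floor by different probe sets and 3 above neither. Each array on its own gave 40 members on replicate 1 and 43 on replicate 2, where 43.3% and 41.5% of all genes were above the floor.

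**Figure D1:**
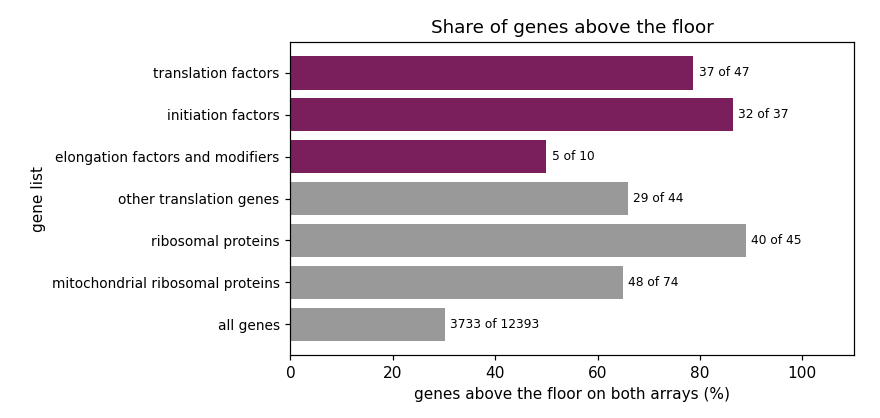
Bars give the percentage of measured genes above the floor on both wild-type arrays for the translation factors and for other gene lists, with the counts beside them. The translation factors reach 37 of 47, the ribosomal proteins 40 of 45 and all genes 3733 of 12393.

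Between the samples, 29 of the 37 detected members lay within 2-fold. Of the others, 3 were past 2-fold with more signal on replicate 2, or 8.11% against 15.8% of all detected genes, and 5 with more on replicate 1, or 13.5% against 8.84%. The first set comprised Eif1b, Eif3c and Eif4g2, and the second Eef1e1, Eef2, Eif2s3x, Eif3d and Eif4a1. The median log2 difference, replicate 2 minus replicate 1, was 0.23 for the members and 0.10 for all detected genes. Counts past 2-fold depended on how the arrays were scaled to each other. Quantile normalization gave 1 member on replicate 2 and 10 on replicate 1, where 10.6% and 9.32% of all detected genes were past 2-fold. It brought Eif1b, Eif3c and Eif4g2 within 2-fold and put Eif1ax past it on replicate 2 and Eef1a1, Eif2b2, Eif3h, Eif4a2 and Eif4b past it on replicate 1. Centring on the array median gave 16 on replicate 2, beside 38.0% of all detected genes, and 1 on replicate 1, Eef2, beside 1.69%. With centring the median of all detected genes moved from 0.10 to 0.73 and that of the members to 0.86, while quantile normalization gave 0.02 for all and -0.01 for the members. The SD of log2 signal over the samples exceeded the pooled SD in 11 members, or 29.7%, near the 30.4% of all detected genes. These were the 8 members past 2-fold and Eef1a1, Eif3f and Eif3k. Over the 10 alternatives that give differences, 23 of the 37 members kept their direction wherever they had a value, 15 of them higher on replicate 2 and 8 on replicate 1. Not all of these alternatives could turn a direction. Changing or dropping the floor left each difference as it was, and adding a constant to every signal cannot change its sign. Members with 1 probe set could be turned only by quantile normalization or median centring. Median centring raised every difference, so it could not turn a member higher on replicate 2.

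**Figure D2:**
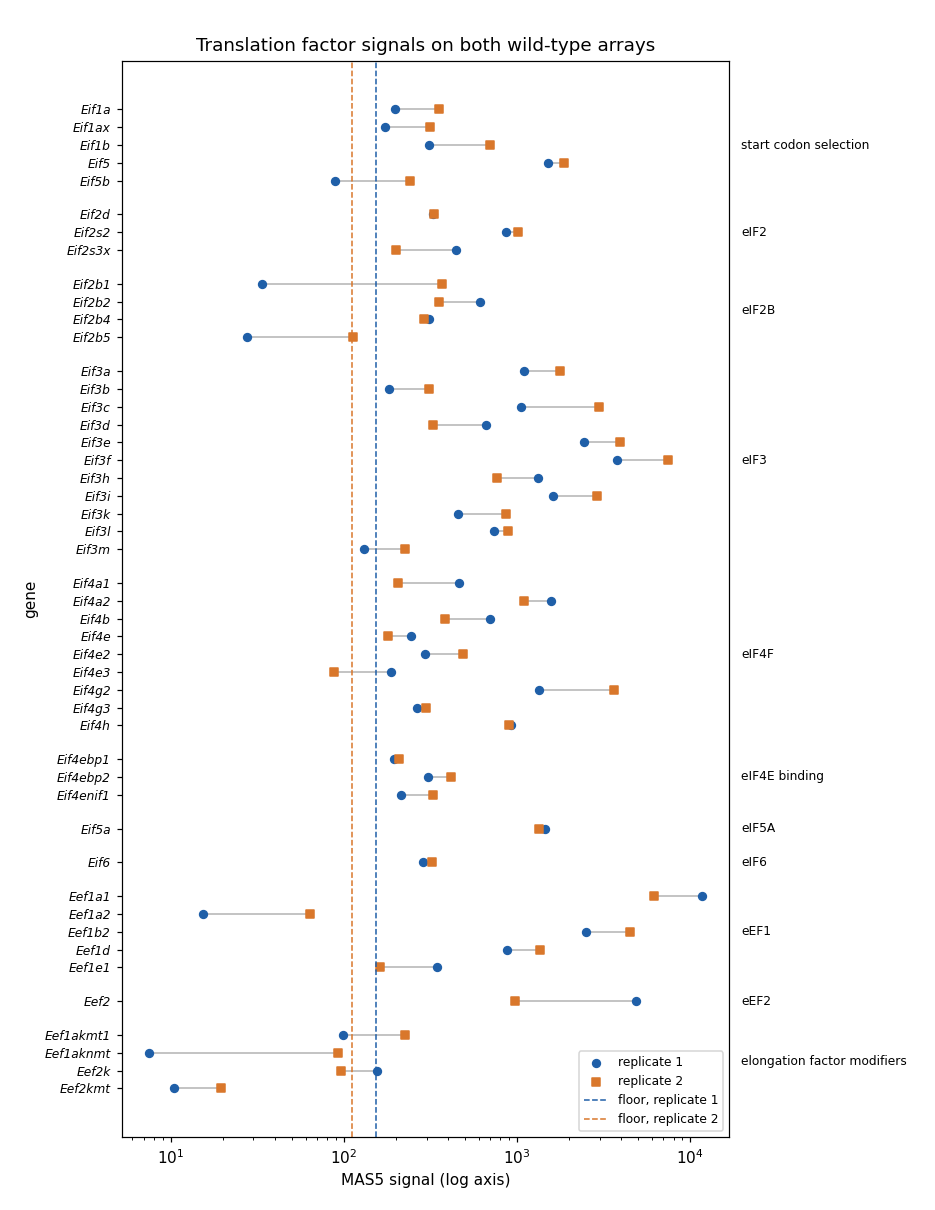
Each row is a translation factor gene and gives its MAS5 signal, on a log axis, on replicate 1 (circle) and replicate 2 (square), with the floor of each array as a dashed line, grouped by complex. Rows are read for the distance between their points and from the floors, since probes differ in affinity, and Eef2 is the detected member whose points lie farthest apart, at 4851 and 973.

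The sequence at the gene starts was examined because pyrimidine starts mark many translation mRNAs and because MYC, a driver of the translation machinery, binds the hexamer CACGTG. RefSeq promoter sequences of build GRCm38.p6, 250 bases before to 50 bases after each annotated start, were matched to 37 members with 51 starts. Not matched were Eef1akmt1, Eef1d, Eif1a, Eif3e, Eif3h, Eif3i, Eif4e3, Eif4ebp1, Eif4g2 and Eif6. A C at the start itself followed by at least 4 pyrimidines (C or T) was found in 2 members, or 5.41%, against 3.03% of 9888 array genes with a sequence and 21.3% of 61 ribosomal protein genes of the same table. The 2 members were Eif3f and Eif2s3x. A run of this kind beginning within 10 bases of the start occurred in 11 members, or 29.7%, against 36.9% of array genes and 63.9% of ribosomal protein genes. Annotated starts can be displaced by a few bases from the base used in B cells, and the match says nothing about translation. The lines below give 10 bases before and 20 from the start. They cover the 2 exact matches, Eef1a1, a known pyrimidine-start mRNA, and Eif3l. In each of them pyrimidines run across the annotated start. Capitals mark the run from the start base on in the exact matches, and from its first C in the others. A later run of Eif3l is left in lower case.
Eif3f, chr7:108934405-108934434, plus strand: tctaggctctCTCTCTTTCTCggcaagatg
Eif2s3x, chrX:94212632-94212661, minus strand: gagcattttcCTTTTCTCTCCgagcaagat
Eef1a1, chr9:78481705-78481734, minus strand: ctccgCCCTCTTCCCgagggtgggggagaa
Eif3l, chr15:79075213-79075242, plus strand: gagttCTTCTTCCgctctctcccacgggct

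The hexamer CACGTG, which reads the same on both strands, was present in the promoter windows of 11 members, or 29.7%, against 10.8% of array genes and 9.84% of ribosomal protein genes. The members were Eef1aknmt, Eef2, Eef2k, Eif1b, Eif3a, Eif3f, Eif3k, Eif4a1, Eif4e, Eif4h and Eif5a. Of these 9 were detected on both arrays, with a median log2 difference of -0.03 and a range from -2.32 for Eef2 to 1.17 for Eif1b. The 20 detected members with a sequence and no such hexamer had a median of 0.20. On replicate 2 the signal was higher for 4 of the 9 and 12 of the 20. The median GC content of the windows was 62.7% for members and 59.0% for array genes, and the shares were not matched for it. The CArG box, the site bound by SRF, had 0 matches among the 37 members, and 1.75% of array genes held it. No match says only that these letters are not in this window. The hexamer is shown in capitals for 6 members whose values are described, 50 bases each.
Eef2, chr10:81176566-81176615, plus strand: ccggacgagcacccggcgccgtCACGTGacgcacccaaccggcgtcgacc
Eif1b, chr9:120492556-120492605, plus strand: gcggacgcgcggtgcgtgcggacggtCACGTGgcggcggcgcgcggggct
Eif3f, chr7:108934325-108934374, plus strand: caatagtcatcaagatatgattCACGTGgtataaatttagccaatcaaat
Eif3k, chr7:28981905-28981954, minus strand: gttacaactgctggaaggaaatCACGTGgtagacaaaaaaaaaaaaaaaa
Eif4a1, chr11:69672585-69672634, minus strand: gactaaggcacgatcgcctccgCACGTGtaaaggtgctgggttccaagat
Eif4h, chr5:134639478-134639527, minus strand: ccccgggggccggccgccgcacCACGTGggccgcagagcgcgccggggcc

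Factors of start codon selection and subunit joining were detected in 4 of 5 cases, and all 4 gave higher signals on replicate 2, where 54.1% of all detected genes were higher, although quantile normalization turned Eif5 and the mean over probe sets turned Eif1ax. Eif1b, a close relative of the start codon selection factor eIF1, gave 311 on replicate 1 and 700.2 on replicate 2. It was 2.25-fold higher there (mean 506 ± 275 (SD, n = 2)), and quantile normalization brought its log2 difference from 1.17 to 0.93, within 2-fold. Eif1a and Eif1ax encode near-identical forms of eIF1A, which keeps the scanning ribosome open. Eif1a gave 196 on replicate 1 and 354 on replicate 2 and Eif1ax 173 and 315, within 2-fold in both cases. Eif1ax is X-linked, and Xist differed as given above, but its part in this was not tested. A further probe set of each gave 47.8 and 103 for Eif1a and 27.9 and 9.60 for Eif1ax, below the floor on both arrays. With the mean over all probe sets the log2 difference of Eif1ax turned from 0.86 to -0.34. Eif5, the GTPase activator of eIF2, gave 1688 ± 252 (SD, n = 2) by its brightest probe set. Its 4 probe sets, all detected, ran from a log2 difference of -0.23 to 0.88, so no direction held across them. Eif5b, the GTPase that joins the subunits, was above the floor of replicate 2 alone, at 88.6 and 242 on replicates 1 and 2 by its brightest probe set. Its other probe sets, below both floors, gave 112 and 60.4, and 83.4 and 17.0, the reverse order.

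The eIF2 members were detected in 3 of 3 cases, and 2 of them were at like levels on both arrays in the deposited scaling. They were the beta and gamma subunits and Eif2d, while the alpha subunit gene Eif2s1 was not among the members. Eif2s2 encodes the beta subunit, and the brightest of its probe sets had 862 on replicate 1 and 1010.0 on replicate 2. Its 4 detected probe sets lay between -0.19 and 0.23 on the log2 scale. Eif2d, a factor that can deliver tRNA without eIF2, gave 325 and 329.9 on replicates 1 and 2, and a further detected probe set gave 233 and 225. Both genes therefore varied by less than the pooled SD. Eif2s3x encodes the gamma subunit from the X chromosome and is known to escape X inactivation. Its brightest probe set, of the class ending in _x_at that can cross-hybridize, gave 443 on replicate 1 and 199 on replicate 2, a 2.23-fold difference. Its other detected probe set gave 179 and 185, or 0.05 on the log2 scale, and the third was below both floors at 130.3 and 108. A difference past 2-fold in Eif2s3x was thus seen by 1 of 3 probe sets, median centring brought it to -0.52, and the part of the Xist difference in it was not tested.

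The nucleotide exchange factor eIF2B was detected on both arrays for 2 of 4 subunits. Eif2b2, the beta subunit, gave 609 on replicate 1 and 352 on replicate 2 by its brightest probe set. Its other probe sets gave 289 and 79.5, and 215 and 71.6, above the floor on replicate 1 alone. All 3 probe sets of Eif2b2 were therefore lower on replicate 2. Eif2b4, the delta subunit, gave 311 and 288 on replicates 1 and 2 and varied by less than the pooled SD. The alpha subunit Eif2b1 and the catalytic epsilon subunit Eif2b5, each with 1 probe set, were above the floor of replicate 2 alone, Eif2b1 with 33.4 and 369.9 and Eif2b5 with 27.7 and 113. The signals of both fix no direction, since those on replicate 1 were below its floor.

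The scaffold complex eIF3, the largest initiation factor, was detected in 10 of 11 cases. Of these 8 were higher on replicate 2, where 54.1% of all detected genes were higher, and 2 on replicate 1. Both quantile normalization and the mean over all probe sets made this 6 and 4. The median log2 difference was 0.73, against 0.10 for all detected genes, and it was 0.18 against 0.02 with quantile normalization and 1.37 against 0.73 with median centring. Eif3c, a core subunit, gave 1048 on replicate 1 and 2968 on replicate 2, and was 2.83-fold higher on replicate 2 (mean 2008 ± 1358 (SD, n = 2)). Quantile normalization brought its log2 difference to 0.84, within 2-fold. Its 4 probe sets were all detected and all gave more signal on replicate 2, with a log2 difference of 0.80 to 3.38 each. The widest came from a probe set of the _x_at class, with 278 and 2887 on replicates 1 and 2. Eif3f, a regulatory subunit whose start sequence is given above, had 1 probe set, with 3749.7 on replicate 1 and 7444 on replicate 2. It lay just within 2-fold, and its SD of log2 signal was above the pooled SD. Eif3i, a propeller subunit, gave 1607 and 2879 by its brightest probe set and 519.8 and 2211 by the other, so both were higher on replicate 2. Eif3k, a peripheral subunit, with 455 and 868, and Eif3b, the RNA-binding platform of the complex, with 183 and 312, also lay within 2-fold, and each had 1 probe set. Eif3e gave 2422 and 3935 by its brightest probe set, while its other detected probe sets gave 1819 and 4467, and 972 and 963, the latter without a difference.

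Eif3a, the largest subunit, showed how far the choice of probe set reaches. Its probe sets detected on both arrays gave 1092 and 1762, and 259.6 and 556, higher on replicate 2. The other probe sets of Eif3a gave 293 and 109.6, and 171 and 70.5, lower on replicate 2 and under its floor. The mean over all 4 turned the log2 difference of Eif3a from 0.69 to -0.23, and quantile normalization turned it to -0.01. Eif3l was near the same level by its brightest probe set, with 735 and 883, while its probe set of the _x_at class gave 169 and 23.3, above the floor of replicate 1 alone. The detected members higher on replicate 1 in the deposited scaling were Eif3d, which binds the cap of some mRNAs, and Eif3h. Eif3d gave 657 on replicate 1 and 326 on replicate 2, just past 2-fold, and log2(signal + 32) and median centring brought its log2 difference from -1.01 to -0.94 and -0.38, within 2-fold. Eif3h gave 1328 on replicate 1 and 766 on replicate 2 by its only detected probe set and lay within 2-fold. Both were lower on replicate 2 under every alternative run, from -1.37 to -0.38 for Eif3d and from -1.39 to -0.16 for Eif3h. Eif3d had 1 probe set, which only quantile normalization and median centring could turn. Eif3m was above the floor of replicate 2 alone, at 129.8 and 224 by the brighter of its 2 probe sets.

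The members of eIF4F and its helicase cofactors were detected in 8 of 9 cases, 3 higher on replicate 2 and 5 on replicate 1, where 45.9% of all detected genes were higher, but median centring made this 6 and 2. The helicase genes were both higher on replicate 1 in the deposited scaling. Eif4a1 gave 461 on replicate 1 and 205 on replicate 2, a 2.25-fold difference, by its only detected probe set, and median centring brought it from -1.17 to -0.54 on the log2 scale. Its other probe sets, below both floors, gave 119 and 15.6, and 57.3 and 82.2, in opposite directions. Eif4a2, a close paralogue of Eif4a1, gave 1563 and 1091 and was within 2-fold, and its log2 difference of -0.52 became 0.11 with median centring and -1.14, past 2-fold, with quantile normalization. Eif4b, a cofactor that stimulates the helicase, gave 695 on replicate 1 and 383 on replicate 2 by its brightest probe set. Of its other probe sets 1 went the same way, with 476 and 309.9, and 1 the opposite way, with 161 and 204. Eif4h, a relative of eIF4B, gave 916 and 900.4 by its brightest probe set, which is of the _x_at class. Its other probe sets gave 567 and 1258, and 584 and 1308, both over 2-fold higher on replicate 2, so that its log2 difference went from -0.03 to 1.15 without the _x_at class.

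The cap-binding proteins had probe sets that disagreed. Eif4e gave 245 on replicate 1 and 180.3 on replicate 2 by the brightest of its probe sets and 161 and 187 by another, with the differences opposed. Eif4e2, a cap-binding homologue that does not bind eIF4G and can repress translation, gave 294 and 488 by its brightest probe set. A further detected probe set of Eif4e2 gave 402 and 209, the reverse order. Eif4e3 was above each floor by a different probe set, with 187 and 87.1, and 38.7 and 247. None of these genes thus had a difference that its probe sets shared. Eif4g2 encodes DAP5, an eIF4G relative without the eIF4E site that serves cap-independent initiation. By the brightest of its probe sets it had 1343 on replicate 1 and 3634 on replicate 2, or 2.71-fold higher on replicate 2. A further probe set gave 448 and 940.1, in the same direction, and another 524 and 404, in the opposite one. The mean over the detected probe sets was 0.71 on the log2 scale, against 1.44, and so within 2-fold, as with quantile normalization, at 0.81. Eif4g3, an eIF4G scaffold, had 1 probe set with 264 and 299 and varied by less than the pooled SD. The scaffold gene Eif4g1 was not among the members.

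Repressors and carriers that bind eIF4E were detected in 3 of 3 cases and were within 2-fold by the brightest probe set. Eif4ebp1, a repressor released from eIF4E when mTOR phosphorylates it, gave 201 ± 10.4 (SD, n = 2). Eif4ebp2, its relative, gave 305 on replicate 1 and 414 on replicate 2, and a further detected probe set gave 169.5 and 346. Another probe set of Eif4ebp2 gave 292 and 82.3, above the floor of replicate 1 alone, and the mean over all 5 turned its log2 difference to -0.08. Eif4enif1, which carries eIF4E into the nucleus, gave 214 and 326 by 1 probe set. At a floor set to the 95th percentile 1 of the 3 genes, Eif4ebp2, was detected. Eif4ebp1 and Eif4enif1 fell under that floor on replicate 1, so there their signals lay close to the background.

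Eif5a and Eif6 were at like levels on both arrays in the deposited scaling. Eif5a encodes the factor that carries hypusine and relieves stalled ribosomes, and it gave 1394 ± 83.9 (SD, n = 2). Its further probe set gave 265 and 179, also lower on replicate 2. Eif6, which keeps the large subunit apart from the small one, gave 304 ± 23.9 (SD, n = 2). Both genes varied by less than the pooled SD. The log2 difference of Eif5a was -0.12, and it became -0.74 with quantile normalization and 0.51 with median centring. That of Eif6 was 0.16 and became 0.11 and 0.79.

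The elongation factors eEF1 and eEF2 included the member with the widest difference among those detected. Eef2, the translocase, gave 4851 on replicate 1 and 973 on replicate 2 by its only probe set. It was 4.99-fold higher on replicate 1 (mean 2912 ± 2742 (SD, n = 2)). Of the alternatives only quantile normalization and median centring could turn 1 probe set, and they gave log2 differences of -2.70 and -1.68. Eef1a1, the carrier of aminoacyl-tRNA, gave 11631 on replicate 1 and 6184 on replicate 2, also by 1 probe set. It was within 2-fold in the deposited scaling and past it with quantile normalization, at -1.11 on the log2 scale. Median centring left it higher on replicate 1, at -0.28. Eef1e1, a scaffold protein of the aminoacyl-tRNA synthetase complex, gave 343 on replicate 1 and 161 on replicate 2, a 2.13-fold difference by 1 probe set. Its log2 difference of -1.09 came within 2-fold with median centring, at -0.46, and with log2(signal + 32), at -0.96.

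Subunits of the eEF1B exchange factor, which reloads eEF1A with GTP, went the other way in the deposited scaling. Eef1b2 gave 2509 on replicate 1 and 4502 on replicate 2 by 1 probe set. Eef1d gave 868 and 1347 by its brightest probe set and 612 and 1721 by a further one, and the mean of both was past 2-fold, at 1.06 on the log2 scale. Both were higher on replicate 2 under every alternative that could turn them, although the log2 difference of Eef1d fell to 0.04 with quantile normalization. The carrier and its exchange factor were thus on opposite sides, while each of Eef1a1, Eef2, Eef1b2 and Eef1e1 rested on 1 probe set. Eef1a2, the muscle and nerve form of eEF1A, was below both floors at 15.4 and 63.3.

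Enzymes that modify elongation factors were detected in 0 of 4 cases, against 30.1% of all genes. Eef2k, the kinase that inhibits eEF2, gave 156 and 95.5, just above the floor of replicate 1. Eef1akmt1, a lysine methyltransferase of eEF1A, had 4 probe sets with opposed differences, among them 98.1 and 224, and 209.5 and 69.8. Eef1aknmt and Eef2kmt, further methyltransferases of eEF1A and eEF2, gave 7.50 and 91.8 and 10.4 and 19.6. No probe set of these genes was above both floors, which does not show that the mRNAs were absent. With the floor set at the array median 2 of the 4 were counted as detected.

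Among the 37 detected members, 16 had 2 or more probe sets above both floors. In 10 of these, or 62.5%, the probe sets differed in sign, against 51.2% of 891 such genes in all. The median range of the log2 difference among the probe sets of a gene was 1.15 for members and 1.01 for all. That range is wider than the 2-fold line used to separate the samples. The 6 members whose detected probe sets shared a sign were Eef1d, Eif3a, Eif3c, Eif3i, Eif4ebp2 and Eif5a, of which Eif5a alone was lower on replicate 2. The spread of Eif2d, at 0.07, was the narrowest and that of Eif3c, at 2.58, the widest.

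**Figure D3:**
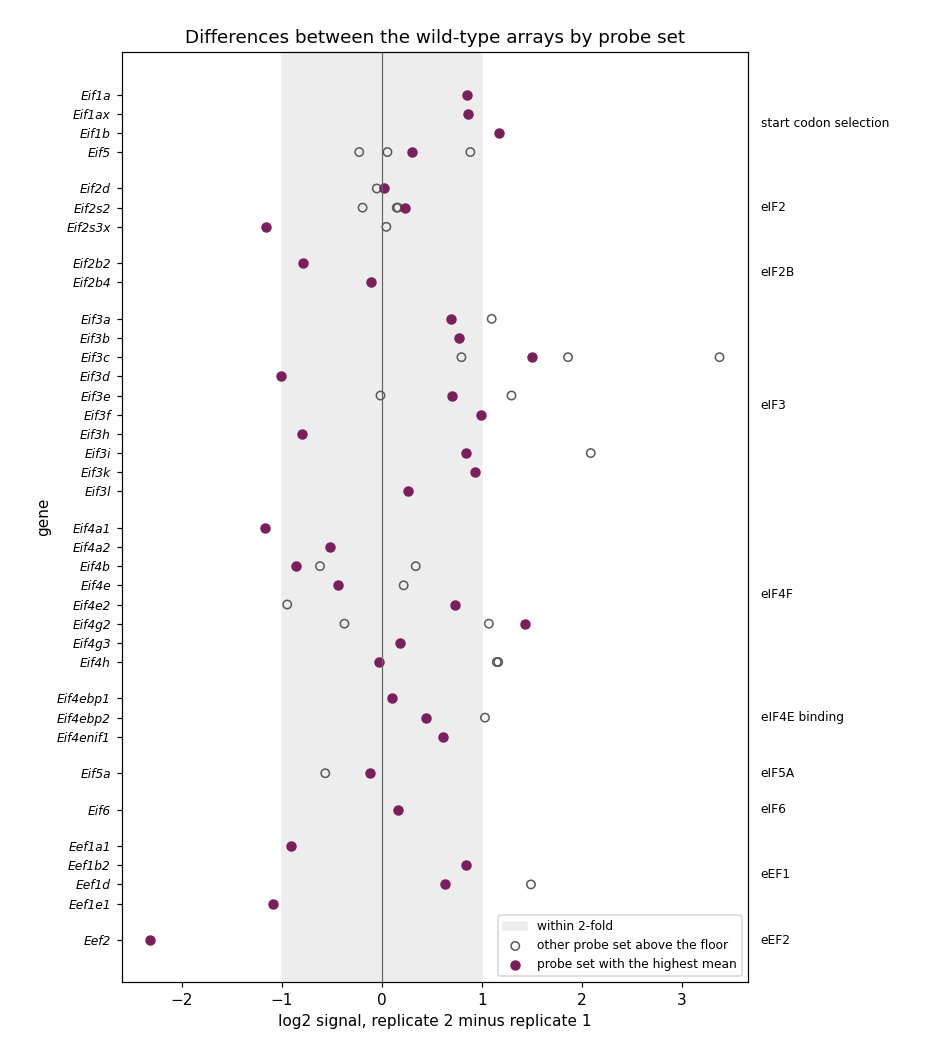
Filled points give the log2 signal of replicate 2 minus replicate 1 for the 37 detected translation factor genes by their brightest probe set, and open points their other detected probe sets, with the band within 2-fold in grey. All 4 points of Eif3c lie right of 0, those of Eif4g2, Eif4e2 and Eif4h lie on both sides, and Eef2 has 1 point at -2.32.

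Other genes of the pathway, a list of 53 of which 44 were measured, were detected in 29 cases. Past 2-fold lay 3 with more signal on replicate 2 and 3 with more on replicate 1, or 10.3% each, beside the 15.8% and 8.84% of all detected genes. Those higher on replicate 1 included genes of the response to eIF2 alpha phosphorylation. Ppp1r15a, which encodes the inducible subunit of the eIF2 alpha phosphatase, gave 1709 on replicate 1 and 245 on replicate 2, a 6.99-fold difference by 1 probe set. Atf4, a transcription factor whose mRNA is translated when eIF2 is limiting, gave 2261 on replicate 1 and 468 on replicate 2 by the brightest of its probe sets, and a further detected one gave 565 and 892, the reverse order. Ddit3, a target of ATF4, gave 374 and 101, with replicate 2 below its floor. Ppp1r15b, the constitutive phosphatase subunit, was higher on replicate 2 with 188 and 415, while the second probe set, below both floors, gave 124 and 31.0. The genes of this group therefore had no common direction across probe sets. Among the kinases of eIF2 alpha, Eif2ak3, the sensor PERK of the endoplasmic reticulum, was the only 1 of 4 detected on both arrays, with 621 and 467.

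Bzw2, which encodes an eIF5 mimic protein, gave 974 on replicate 1 and 127 on replicate 2 by the brighter of its probe sets, while the second one, not above the floor of replicate 1, gave 114 and 151. Its relative Bzw1 gave 652 and 952 by the brightest probe set, while its other 3 detected ones were lower on replicate 2, by log2 differences of -1.19, -0.60 and -0.26. Ddx3x, an X-linked helicase of initiation, gave 1656 and 1015, with a further detected probe set in the reverse order at 545 and 682. Dhx9, another helicase, gave 198 and 501, or 2.53-fold higher on replicate 2, by its only detected probe set. Its other probe sets, below both floors, gave 144 and 69.3, and 20.6 and 5.90, the reverse order. Mknk2, a kinase of eIF4E, gave 1214 on replicate 1 and 4273 on replicate 2 and was 3.52-fold higher on replicate 2. Larp1, the mTOR-regulated repressor of pyrimidine-start mRNAs, gave 508 ± 4.10 (SD, n = 2), and Mtor itself 359 ± 13.9 (SD, n = 2). Both were near the same level in the samples by these probe sets in the deposited scaling. A further probe set of Mtor gave 161 and 25.8, above the floor of replicate 1 alone. Pdcd4, an inhibitor of eIF4A, gave 427 and 615. Pabpc1, the poly(A)-binding protein that bridges to eIF4G, gave 9843 ± 1154 (SD, n = 2) by its brightest probe set, and a further detected one gave 368 and 133, past 2-fold and lower on replicate 2. Pabpc4 gave 328 ± 16.5 (SD, n = 2) by its brightest probe set and 321 and 196 by another. Paip2, an inhibitor of that bridge, gave 836 and 1422. By the brightest probe set these 4 genes lay within 2-fold.

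The termination factor gene Etf1 gave 239 and 465, just within 2-fold, by the probe set used for it, while its other detected ones gave 367 and 221, the reverse order, and 181 and 225. Gspt1, its GTPase partner, was not above both floors at 145 and 168. The enzymes that make hypusine on eIF5A were both detected, Dhps with 205 and 161 and Dohh with 223 and 131. Tpt1, a pyrimidine-start mRNA whose product binds elongation factors, gave 28841 ± 5044 (SD, n = 2). Dph5, needed to make the diphthamide of eEF2, gave 311 and 468, and Hbs1l, a ribosome rescue GTPase, 229.5 and 263. The mitochondrial factors Mtif2, Tufm and Gfm1, for initiation and elongation on mitochondrial ribosomes, gave 196 and 186, 176 and 129, and 211 and 396. By the brightest probe set these detected genes lay within 2-fold in the deposited scaling. Of the list, 17 were detected with the floor at the 95th percentile, so that many of its signals were close to the background.

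**Figure D4:**
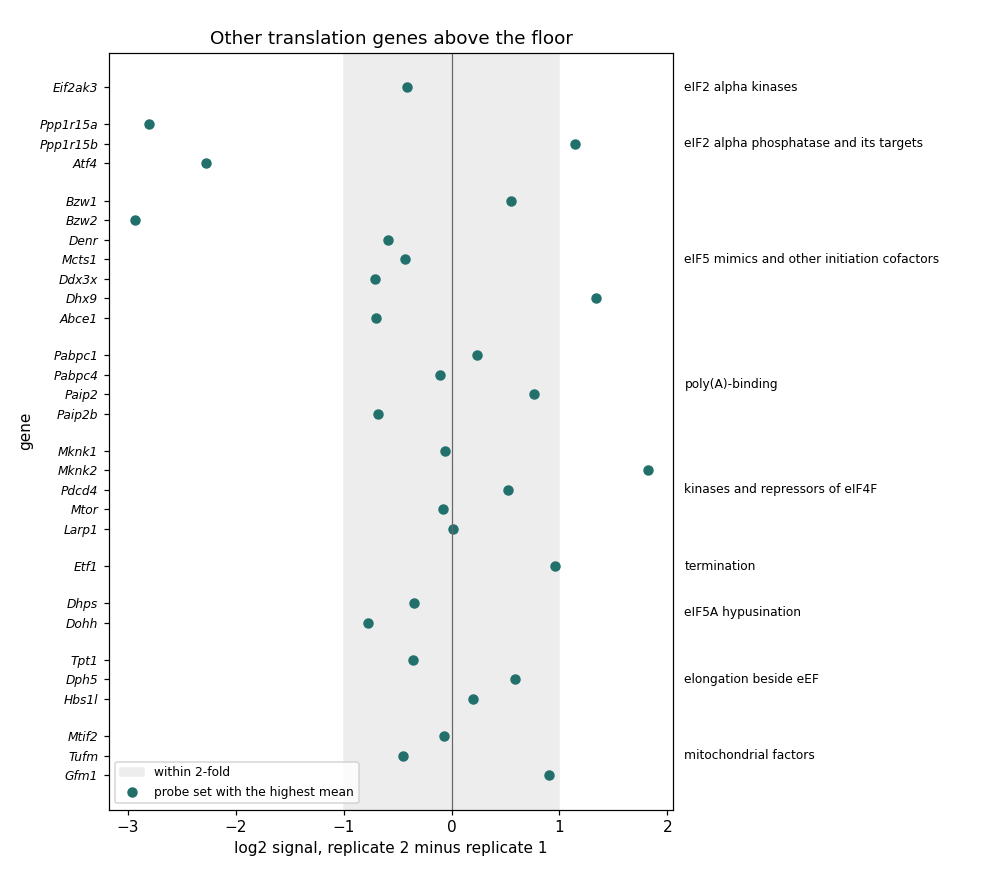
Points give the log2 signal of replicate 2 minus replicate 1 for the 29 other translation genes detected on both arrays, by the brightest probe set and grouped by role, with the band within 2-fold in grey. Bzw2, Ppp1r15a and Atf4 lie left of the band, and Mknk2, Dhx9 and Ppp1r15b right of it.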

How the data were processed

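The deposited table holds signal intensities on a linear scale, computed by the authors with MAS5 per the submitters' processing notes, with no version, target or detection calls given in the sources used here. Per the labels' protocols, biotinylated cRNA was made from 6 µg of total RNA. The means trimmed by 2% per end, 150.03 and 150.06, are alike, as after scaling to 1 target, which multiplies the background of a dim array too. The values are no counts, and having 2 arrays limits the precision. Of 22626 probe sets without the 64 controls, 20380 named 1 gene, 691 several and 1555 none here. All 47 member symbols stood unchanged when looked up by Entrez identifier in RefSeq. Each gene was represented by its brightest probe set, by mean log2 signal. Differences are log2 replicate 2 minus log2 replicate 1. The alternatives were floors at the 95th percentile or the array median, all genes without a floor, quantile normalization, median centring, log2(signal + 32), no _x_at probe sets, the mean over all or over detected probe sets, and, chosen after seeing the data, a floor without Mbp, which lymphoid cells also transcribe. All members are named. Signals were to be given for those detected on both arrays or past 2-fold, and those of the others were added later. Of the other translation genes, those past 2-fold and up to 2 per role with the highest mean were to be named, and the further ones named were chosen after their values were seen. Members, lists and complexes were chosen with earlier results of these data known. The code that makes the calls was run on simulated arrays with less noise than these. That run cannot give the error rate of the calls made here. Python 3.11.15, pandas 2.3.3 and numpy 2.4.6 were used.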

Additional observations from a re-analysis of the deposited data

How the results depend on the processing

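The count of detected members, 37, lay between 32 with the floor at the 95th percentile and 41 with the floor at the array median, where 18.7% and 43.0% of all genes were detected, and was 40 to 43 on either array alone. Members past 2-fold were 5 on replicate 1 and 3 on replicate 2. They became 10 and 1 with quantile normalization (9.32% and 10.6% of all detected genes) and 1 and 16 with median centring (1.69% and 38.0%). With log2(signal + 32) they were 3 and 3 (6.21% and 13.9%). With no floor, where every gene counts as detected, they were 6 and 9 (33.3% and 18.4%). Median centring raised the median difference of members from 0.23 to 0.86, of eIF3 from 0.73 to 1.37, of start codon selection from 0.86 to 1.49 and of the eIF4E-binding group from 0.44 to 1.07. It moved the eIF2 group, whose median gene was Eif2d, from 0.02 to 0.66. It also moved eIF4F from -0.23 to 0.40, eIF2B from -0.45 to 0.18 and eEF1 from -0.14 to 0.49. These shifts follow from the construction of the setting, which adds 1 constant to every log2 difference. With no floor eEF1 came to 0.63 and eIF2B to 0.96. Detected eIF2B genes fell from 2 to 1 without _x_at probe sets and were 2 to 4 on either array alone. With the floor at the 95th percentile 1 of the eIF4E-binding group and 2 of start codon selection remained above it, and 17 of the other translation genes, against 29. Modifiers of elongation factors, 0 in the report, were 2 with the floor at the array median, 1 with the floor without Mbp, and 1 to 2 on either array alone. Other translation genes past 2-fold, 3 on each array, became 6 on replicate 1 with the floor at the array median (14.6% of all detected genes). There they became 9 with no floor (33.3%) and 9 with the mean over probe sets (13.3%). On replicate 2 they became 1 with the floor at the 95th percentile (17.7%) and 9 with median centring (38.0%). Members with a pyrimidine start went from 2 to 11 when the run could begin within 10 bases of the start. Without _x_at probe sets Eif2s3x went from -1.16 to 0.045 and Eif4h from -0.03 to 1.15 on the log2 scale. Beyond the scalings and probe set choices named, the cause was not tested. No difference could be given without a replicate, and no paired analysis was possible because there is 1 group.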

Other observations

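Further translation factors were on probe sets that name several genes and so were not members. The probe set shared by Eef1g, a subunit of the eEF1B exchange factor, and Gm29753 gave 2271 on replicate 1 and 3865 on replicate 2. That shared by Eif4a3, the helicase of the exon junction complex, and Gm5576 gave 486 on replicate 1 and 487 on replicate 2. The 3 probe sets shared by Eif3j1 and Eif3j2, which encode the loosely bound j subunit of eIF3, gave 254 and 288, 168 and 43.4, and 23.5 and 233 on replicates 1 and 2, without a common direction.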
